A study of Homo sapiens with 6 samples.

Results

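SPARC, TNC, THBS1, FN1, FBLN5, MGP, OLFML2B, ABI3BP and PXDN are 9 secreted, non-collagen matrix genes among the 770 genes of the NanoString PanCancer Progression Panel, a hybridization assay in which a gene-specific probe pair is counted through a fluorescent barcode without amplification. They were picked by name with their values in HCT116 p21-/- against HCT116 WT cells already known. The values of that contrast thus chose them, and their levels are given below as a description, with no test result. HCT116 is a line of human colorectal carcinoma cells. Its isogenic HCT116 p21-/- counterpart lacks intact copies of CDKN1A, the gene of the cell cycle inhibitor p21. Total RNA of 3 untreated biological replicates of each line was measured, and the study's methods describe the p21-/- cells as a line received from another laboratory. The growth notes speak of knockout clones, and how many of them entered the 3 p21-/- samples is not given in the sources used here. The sample labels give RPMI medium for both lines. The methods give DMEM for the p21-/- cells and RPMI for the WT cells, and if the methods apply, medium and genotype cannot be told apart.

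Matricellular proteins are secreted into the extracellular matrix but act mainly as modulators: they bind collagens, growth factors and cell surface receptors, and they are known for appearing in wound repair, development and tumour stroma. SPARC, tenascin C and thrombospondin 1 are classical members of this group. Fibronectin is the fibrillar glycoprotein on which cells spread through integrins, fibulin 5 helps to assemble elastic fibres, and peroxidasin is a secreted peroxidase that crosslinks the collagen IV network of basement membranes. In normal colon and in its tumours, much of the interstitial matrix comes from fibroblasts, while epithelial cells rest on the basement membrane.

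The values were normalized counts, and each sample had a floor, set from the panel's negative control probes, that stood in for all lower values. It lay at 29.8 to 34.9 in WT and at 25.7 to 33.8 in p21-/- cells. A value at the floor could stand for up to 39.25 to 44.92 normalized counts in WT and 25.66 to 36.51 in p21-/- samples. This upper limit is the floor or, where larger, the floor times the scaling factor of the sample. Where a line was at the floor throughout, the fold is a lower bound against the upper limit. Folds are ratios of geometric means. The 9 genes were not equally well measured: 6 were above the floor in all 6 samples, and SPARC, TNC and ABI3BP had floor values in WT samples only. In bulk RNA, fewer cells that make a transcript and less of it per cell cannot be told apart. CDKN1A itself stood at 4133, 5659 and 4312 normalized counts in the 3 WT samples and at 460, 409 and 388 in the 3 p21-/- samples, or 8.90% of the WT level, the direction that the labels give. The total was 867421 to 1187905 barcode counts in the WT samples and 1125125 to 1335466 in the p21-/- samples. All 6 measured colon epithelial markers were above the floor in all 6 samples, with a summed level of 22097.7 to 26592.5 in WT and 14145.2 to 14816.4 in p21-/- samples, and their part in the differences below was not tested. They did not move as one: 4 of the 6 were called lower, among them CDH1 (E-cadherin) by -3.23 and CLDN7 by -2.17 on the log2 scale, and EPCAM was called higher by 0.22 (adjusted p = 0.0444 from limma), which became -0.17 (adjusted p = 0.0521) when scaled on 30 housekeeping candidates and lost its call with the replicate block (adjusted p = 0.0834), with a constant prior variance (0.135), in the ordinary linear model (0.0792) and without WT replicate 2 or any 1 of the 3 p21-/- samples (adjusted p = 0.0705 to 0.223). CLDN3 was not called (0.25, adjusted p = 0.148). The housekeeping candidates were listed from general knowledge of the panel, since the genes that the authors scaled on are not named in the sources used here. The median SD of log2 values between replicates, over genes never at the floor, was 0.160 in WT and 0.0634 in p21-/- cells.

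The direction and the size of the change differed between the 9 genes. All 3 p21-/- values lay above all 3 WT values for 8 of them, and below for 1, PXDN. Over the whole panel, 25.5% of genes lay higher without overlap and 26.8% lower. In the limma fit of all genes, with an adjusted p below 0.05 as the call, 21.8% of the panel was called higher and 26.0% lower. The 9 genes were part of that fit, but since the contrast chose them its calls are not used for them, and nothing is read from the counts without overlap. The median difference of mean log2(value + 1), p21-/- minus WT, was 0.85 over the 9 genes and -0.12 over all 770 genes, the latter being the value of any gene that all 6 samples list at the floor. Over the 446 genes never at the floor it was -0.05.

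The sequences just upstream of the start of the genes with the largest differences are shown here because these 4 promoters, of SPARC, THBS1 and TNC as the genes with the largest positive differences and of PXDN as the gene that was lower, differ in composition. Each is the stretch of 250 bases before the annotated start on the gene's strand, 5′ to 3′, from RefSeq (GRCh38.p14). Capitals mark each TATAA on the gene's strand and each GGGCGG or its complement CCGCCC, the core of a GC box.
SPARC, chr5:151686916-151687165, minus strand: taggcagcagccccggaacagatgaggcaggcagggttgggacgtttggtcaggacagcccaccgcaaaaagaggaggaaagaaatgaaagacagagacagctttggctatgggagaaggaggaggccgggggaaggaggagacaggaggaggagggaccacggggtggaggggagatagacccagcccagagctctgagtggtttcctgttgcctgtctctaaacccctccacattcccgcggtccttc
TNC, chr9:115118158-115118407, minus strand: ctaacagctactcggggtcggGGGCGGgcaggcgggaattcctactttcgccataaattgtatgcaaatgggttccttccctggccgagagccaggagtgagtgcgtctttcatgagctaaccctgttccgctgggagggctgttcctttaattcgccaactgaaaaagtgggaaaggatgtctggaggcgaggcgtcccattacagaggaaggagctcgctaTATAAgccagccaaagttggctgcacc
THBS1, chr15:39580829-39581078, plus strand: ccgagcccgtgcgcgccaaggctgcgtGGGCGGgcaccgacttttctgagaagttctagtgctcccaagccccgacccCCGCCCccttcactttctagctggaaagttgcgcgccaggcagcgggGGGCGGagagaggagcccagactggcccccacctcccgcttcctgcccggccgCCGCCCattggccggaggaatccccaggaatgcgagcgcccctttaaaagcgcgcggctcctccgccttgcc
PXDN, chr2:1744516-1744765, minus strand: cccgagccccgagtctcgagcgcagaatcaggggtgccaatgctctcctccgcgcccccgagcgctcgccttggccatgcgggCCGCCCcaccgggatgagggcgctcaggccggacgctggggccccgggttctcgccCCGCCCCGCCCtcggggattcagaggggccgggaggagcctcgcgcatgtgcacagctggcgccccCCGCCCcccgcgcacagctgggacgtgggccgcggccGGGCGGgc

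The SPARC stretch had neither motif, with a GC content of 59.2% and 7 CpG sites, 0.34 of the number that its base composition gives. The TNC stretch had 1 TATAA, which began 27 bases before the start, together with a GC content of 54.8% and 12 CpG sites. THBS1 and PXDN were of the GC-rich kind, with GC contents of 69.6% and 78.4%, 24 and 32 CpG sites, and 4 and 5 GC box cores. For comparison, the median over the 35116 promoters of the same table was a GC content of 58.0% and 0.558 of the CpG sites that composition gives.

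Of the 9 matrix genes, all but MGP, or 8, had an entry in the table, with 9 promoters in all since FBLN5 had a pair. GGGCGG, searched on both strands, was found in 8 of the 9, all but that of SPARC, against 42.64% of all promoters. TATAA, on the gene's strand only, was found in 3 of the 9, those of TNC, FN1 and the second one of FBLN5, against 13.64% of all. The FN1 match began 28 bases before the start and that of FBLN5 33 bases before it. The E-box CACCTG, the motif of SNAI and ZEB repressors, and TGACTCA, the motif of AP-1, were each searched on both strands and found in 0 of the 9 stretches, against 17.49% and 4.2% of all promoters. These are matches of letters in a short window and say nothing of the factors. The GC-rich kind held both a gene that was higher, THBS1, and the one that was lower, PXDN.

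Among the matricellular genes, SPARC, a collagen-binding glycoprotein that loosens cell attachment, had the largest difference of the 9. It was at the floor in WT replicates 1 and 2, listed at 29.8 and 34.9, and at 49.1 normalized counts in WT replicate 3. In p21-/- samples 1 to 3 it was at 4244, 4981 and 4386. The lines were far apart, the lowest p21-/- value being 86.4 times the highest WT value. The WT mean of 38.0 ± 10.0 stood against a p21-/- mean of 4537 ± 391 (SD, n = 3 each), a log2 difference of 6.89 (standard error 0.219), which was second from the top of the 770 genes. The WT mean, its SD and the standard error take the floor values as listed, so they do not measure the WT spread of SPARC.

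How much SPARC the WT cells had is poorly known. The value of WT replicate 3 stood for 42 barcode counts (95% exact Poisson interval 30.27 to 56.77, counting error only), beside a highest negative control of 30 counts in that sample. The fold was 122 with the floor values as listed and 102 with them at their upper limit. The p21-/- side rested on 3934 to 5473 barcode counts.

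THBS1 encodes thrombospondin 1, a trimeric protein that binds CD36 and CD47 and can activate latent TGF-beta. It was at 228, 228 and 249 normalized counts in WT samples 1 to 3 and at 1123, 999 and 1055 in p21-/- samples 1 to 3. Unlike SPARC it was well above the floor in both lines, at 5.07 to 6.31 times the upper limit of the floor in WT samples. The lines did not overlap and the replicates of each lay within a narrow band. The WT mean of 235 ± 12.3 stood against a p21-/- mean of 1059 ± 62.0 (SD, n = 3 each), 4.51-fold higher, with a log2 difference of 2.17 (standard error 0.0648).

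TNC, the gene of tenascin C, a large modular glycoprotein that competes with fibronectin for cell attachment, was floored in each of the 3 WT samples. In p21-/- samples 1 to 3 it was at 141, 145 and 148 normalized counts, or 131, 159 and 167 barcode counts. These were the most even p21-/- replicates among the 9 genes, with a log2 SD of 0.0319. The change was at least 3.51-fold. The log2 difference of 2.11 takes the floor values as they are listed, and with them at their upper limit it was 1.79.

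Of the genes of fibrillar and elastic matrix, FN1, the gene of fibronectin, was present in both lines and changed by much less. It was at 142, 135 and 178 normalized counts in WT samples 1 to 3 and at 276, 244 and 244 in p21-/- samples 1 to 3. WT replicate 3 came closest to the other line, and the lowest p21-/- value was still 1.37 times this value. The WT mean of 151 ± 23.1 stood against a p21-/- mean of 255 ± 18.5 (SD, n = 3 each), 1.69-fold higher, with a log2 difference of 0.76 (standard error 0.136).

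FBLN5 encodes fibulin 5, an integrin-binding protein required for elastic fibres. Its values were 84.4, 86.5 and 94.7 normalized counts in WT samples 1 to 3 and 139, 173 and 170 in p21-/- samples 1 to 3. Here p21-/- replicate 1 was the low one of its line, whereas for FN1 and THBS1 the same replicate was the high one. On average there were 88.5 ± 5.46 in WT and 161 ± 18.7 in p21-/- cells (SD, n = 3 each), 1.81-fold higher, with a log2 difference of 0.85 (standard error 0.112).

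MGP encodes matrix Gla protein, an inhibitor of calcification found in cartilage and vessel walls. It was at 57.3, 49.4 and 60.8 normalized counts in WT samples 1 to 3 and at 93.9, 97.4 and 70.8 in p21-/- samples 1 to 3. The lines came closer than for any other of the 9 genes, p21-/- replicate 3 being 1.16 times WT replicate 3. Averages were 55.8 ± 5.82 in WT and 87.3 ± 14.5 in p21-/- cells (SD, n = 3 each), 1.55-fold higher, with a log2 difference of 0.63 (standard error 0.168). The WT values stood for 38 to 52 barcode counts, 1.46 to 1.73 times the highest negative control of the sample.

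OLFML2B encodes a secreted protein with an olfactomedin domain. It was at 57.3, 41.6 and 62.0 normalized counts in WT samples 1 to 3 and at 124, 121 and 118 in p21-/- samples 1 to 3. The WT samples were scattered close to the floor, WT replicate 2 at 1.06 times its upper limit, while the p21-/- samples were even. The WT mean of 53.6 ± 10.7 stood against a p21-/- mean of 121 ± 3.19 (SD, n = 3 each), 2.29-fold higher, with a log2 difference of 1.18 (standard error 0.174).

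ABI3BP encodes a matrix protein with fibronectin-type domains. It was floored in each of the 3 WT samples and low in the other line, at 53.9, 51.9 and 62.8 normalized counts in p21-/- samples 1 to 3. These values stood for 50, 57 and 71 barcode counts, 1.52 to 2.29 times the highest negative control of each sample. The change was at least 1.36-fold, so that what is known of ABI3BP is a weak signal in p21-/- cells and a limit in WT cells.

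PXDN was the gene that ran the other way. It was at 339, 370 and 401 normalized counts in WT samples 1 to 3 and at 47.5, 41.0 and 38.1 in p21-/- samples 1 to 3. The highest p21-/- value was far below the lowest WT value, with a ratio of 7.14 between them. Its average was 370 ± 31.0 in WT and 42.2 ± 4.82 in p21-/- cells (SD, n = 3 each), 8.79-fold lower as listed, with a log2 difference of -3.11 (standard error 0.115), place 15 from the bottom of the panel. Subtracting the background, an alternative chosen after seeing the data, moved that difference to -3.87.

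The p21-/- values of PXDN were 44, 45 and 43 barcode counts against highest negative controls of 33, 25 and 31 counts. They were 1.21 to 1.60 times the upper limit of the floor. The remaining 11.4% of the WT level was thus a signal close to background.

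**Figure D1:**
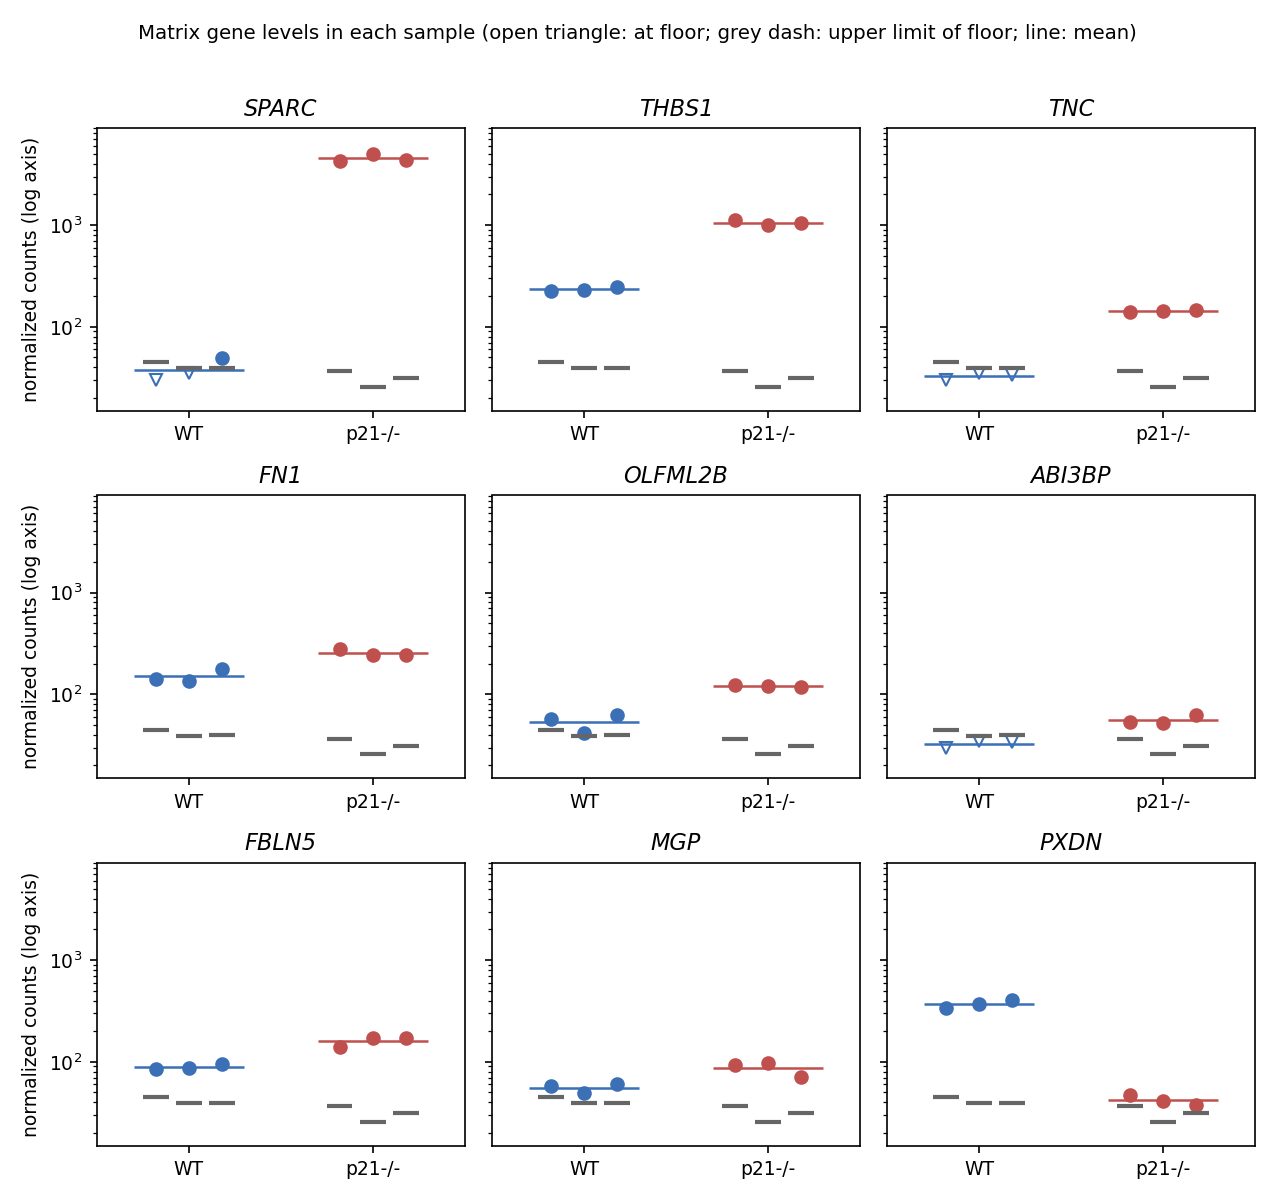
Normalized counts of the 9 matrix genes (log axis) in the 3 WT samples (blue) and the 3 p21-/- samples (red), in order of replicate number, with the line mean as a horizontal line, values at the floor as open triangles and the upper limit of the floor of each sample as a grey dash. SPARC was at or near the floor in WT and at 4244 to 4981 in p21-/- samples, THBS1 was well above the floor in both lines, TNC and ABI3BP were floored in every WT sample, and PXDN was at 38.1 to 47.5 in p21-/- samples, just above the grey dashes.

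**Figure D2:**
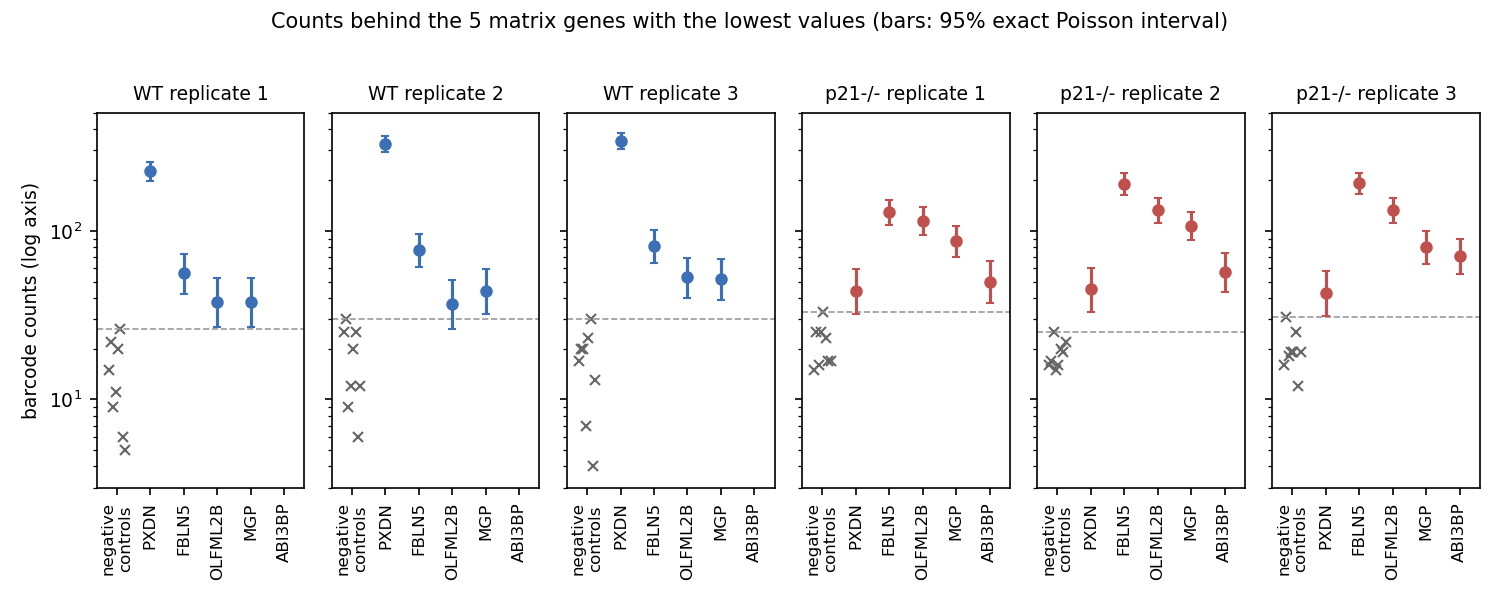
Barcode counts (log axis) of PXDN, FBLN5, OLFML2B, MGP and ABI3BP in each sample, with 95% exact Poisson intervals, beside the 8 negative control probes of that sample (grey crosses, the highest marked by a dashed line); a value at the floor has no point. PXDN lay at 225 to 343 counts in WT and 43 to 45 in p21-/- samples, and the other 4 genes lay farther above the negative controls in p21-/- than in WT samples.

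The differences are set in order here as a description. For the 6 genes never at the floor, THBS1 lay 0.99 above OLFML2B on the log2 scale, with a combined standard error of 0.186 for both differences. OLFML2B lay 0.33 above FBLN5 (combined standard error 0.207). FBLN5, FN1 and MGP followed with gaps of 0.09 and 0.13, smaller than their combined standard errors of 0.176 and 0.216. PXDN was 3.73 below MGP (combined standard error 0.204).

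The place of the other 3 genes depended on how the WT floor was read. With floor values as listed the log2 difference was 6.89 for SPARC, 2.11 for TNC and 0.76 for ABI3BP, and with them at their upper limit it was 6.64, 1.79 and 0.44. SPARC was above THBS1 on both readings. TNC was close to THBS1 (2.17) on the first and lower on the second, and ABI3BP went from between FBLN5 and FN1 to below MGP. Among all 770 differences, with floor values as listed, the ranks from the top were 2 for SPARC, 10 for THBS1, 11 for TNC, 34 for OLFML2B, 63 for FBLN5, 83 for ABI3BP, 84 for FN1 and 105 for MGP.

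The small differences depended on how the samples were put on one scale. The sign of each of the 9 differences was the same under 4 other scalings. Over the 446 genes never at the floor, these scalings shifted the differences by a median of 0.21 (median scaling), 0.20 (quantile normalization), 0.11 (trimmed mean) and -0.39 (30 housekeeping candidates). The share of called genes that were higher moved with them, from 45.7% to 59.8%, 58.0%, 53.9% and 15.5%. With floor values as listed, the log2 difference of SPARC was between 6.51 and 7.10 over these scalings, that of THBS1 between 1.78 and 2.45, that of TNC between 1.73 and 2.35, and that of PXDN between -3.49 and -2.89.

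For the genes with smaller differences the same shift took a larger part. The log2 difference of FN1 was between 0.37 and 1.12, that of FBLN5 between 0.46 and 1.18, that of OLFML2B between 0.80 and 1.40 and that of ABI3BP between 0.38 and 0.96. MGP was between 0.25 and 0.84, and under the housekeeping candidates its lines overlapped, with WT values of 56.1 to 68.0 and p21-/- values of 62.3 to 85.1. Of those 30 candidates 19 were called higher and 3 lower, and their median log2 difference was 0.38. Which scaling is nearest to the RNA content of the cells was not tested.

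**Figure D3:**
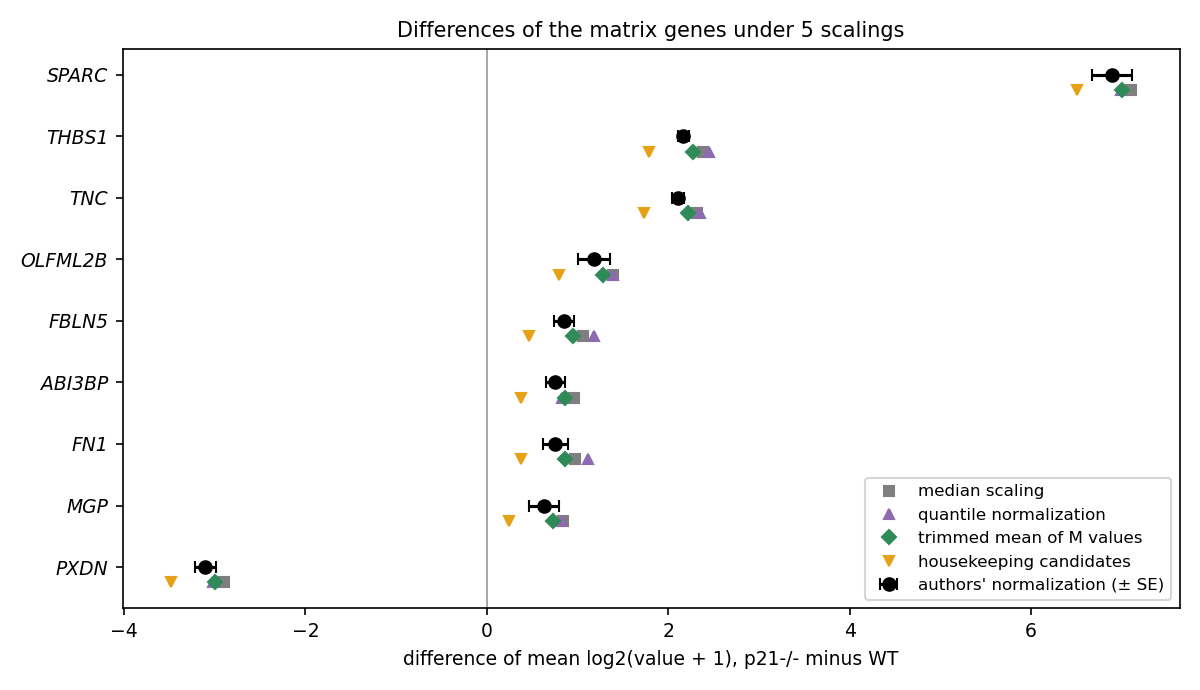
Difference of mean log2(value + 1), p21-/- minus WT, of the 9 matrix genes in order, with the authors' normalization (black, ± standard error, n = 3 per line, floor values of SPARC, TNC and ABI3BP as listed) and under 4 other scalings (coloured marks below). No gene crossed 0, SPARC stayed between 6.51 and 7.10 and PXDN between -3.49 and -2.89, while MGP came down to 0.25 under the housekeeping candidates.

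The genes that moved most like each of the 6 genes never at the floor were looked up over the 440 other such genes, by the root mean square difference of log2 values centred on each gene's mean over the 6 samples. They were F3 for THBS1 (0.148), APC for FN1 (0.0753), PLCG1 for FBLN5 (0.0541), ACVR1C for MGP (0.113), GPATCH3 for OLFML2B (0.0935) and S100A14 for PXDN (0.155). F3, the gene of tissue factor, had a log2 difference of 2.06, and S100A14, a gene of epithelial cells, one of -3.02. GPATCH3, the nearest gene to OLFML2B, had a log2 difference of 1.19 and is one of the housekeeping candidates.

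Matrix genes of this kind are known products of fibroblasts, so the fibroblast markers of the panel were read in the same samples. Of 8 measured, 7 were floored in every WT sample, and LUM and FAP in every p21-/- sample too. Their summed level was 418.1 to 477.4 normalized counts in WT and 284.3 to 333.2 in p21-/- samples, where 8 floor values alone would sum to up to 279.5 and 270.7. COL1A1, the gene of the main fibrillar collagen chain, fell (adjusted p = 2.27e-07 from limma), and PDGFRB, floored in every WT sample, rose by at least 1.22-fold (adjusted p = 0.00376), a call lost under the housekeeping candidates and with floor values at their limit. Of 4 endothelial markers KDR, TEK and TIE1 were at the floor in all 6 samples, while PECAM1 was floored in every WT sample and at 41.0 and 27.3 in the 2 p21-/- samples where it was above the floor. Of 4 leukocyte markers PTPRC and ITGAM were at the floor in all 6. CD163 was above the floor in 1 p21-/- sample, and PRF1, the gene of perforin, was above it in all 6 samples and fell to 52.5 ± 1.97 from 155 ± 49.0 (SD, n = 3 each, adjusted p = 1.8e-05 from limma).

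Other genes of the matrix, its receptors and proteases and the TGF-beta axis gave the surroundings in which the 9 genes changed. Of 116 such genes measured, 15 were called higher (12.93%) and 28 lower (24.14%), against 21.8% and 26.0% of the panel. At the floor in all 6 samples were 30 of the 116, against 167 of the 770 genes of the panel. With floor values as listed, genes at the floor throughout were not called in either direction. Their median log2 difference was -0.12, that of all genes.

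Relatives of the 9 genes among the glycoproteins and proteoglycans were often at the floor. Of 33 measured, 13 were at the floor in all samples, against 167 of the 770 genes of the panel. Among the 13 were THBS2 and TNN, paralogues of THBS1 and TNC. In this list 2 were called higher and 5 lower, with a median log2 difference of -0.12. THBS4, another thrombospondin, at the floor in 2 WT samples, rose to 78.8 ± 9.21 normalized counts from 40.0 ± 9.76 (SD, n = 3 each, adjusted p = 0.00033 from limma), and SRPX2 rose by 0.56 on the log2 scale (adjusted p = 0.0186), a call that was lost under the housekeeping candidates, in the ordinary linear model and without p21-/- replicate 1 or 2. SPARCL1, the paralogue of SPARC, was at the floor in 2 samples of each line, with a log2 difference of -0.18 (adjusted p = 0.495). SPOCK3, a proteoglycan with a SPARC-like domain, fell by 1.58 on the log2 scale, to the floor in 2 p21-/- samples (adjusted p = 1.53e-06), and MMRN2, an endothelial matrix glycoprotein, fell by 1.17 (adjusted p = 0.000101). Neither SPARCL1 nor SPOCK3 was called higher.

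The elastic fibre list had 8 measured genes, of which 2 were called higher and 1 lower, with a median log2 difference of -0.10. FBN1, the gene of the microfibril protein fibrillin 1, was floored in every WT sample and reached 50.3 ± 7.86 (SD, n = 3) in p21-/- cells, a rise of at least 1.21-fold (adjusted p = 0.00493), a call lost under the housekeeping candidates and with floor values at their limit. FBLN1, a fibulin like FBLN5, was called higher by 0.31 on the log2 scale (adjusted p = 0.0461), but was at -0.08 under the housekeeping candidates and lost the call in 8 of 18 alternatives, among them those without WT replicate 1 or 2 or any 1 of the p21-/- replicates. LTBP4, a latent TGF-beta binding protein of elastic fibres, fell to 522 ± 21.2 from 964 ± 152 (SD, n = 3 each, adjusted p = 1.36e-05). EMILIN1 and MFAP4 were at the floor in all 6 samples.

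PXDN acts in basement membranes, and that list was split, with 4 called higher and 4 lower of 14 measured and a median log2 difference of -0.01. HSPG2, the gene of perlecan, fell to 91.0 ± 14.8 from 625 ± 172 (SD, n = 3 each), a log2 difference of -2.74 (adjusted p = 8.86e-09), and COL18A1 fell by 1.14 (adjusted p = 1.83e-06). AGRN, the gene of agrin, rose by 0.90 on the log2 scale (adjusted p = 4.82e-05). COL4A1 and COL4A2, the most widespread chains of the collagen IV that peroxidasin crosslinks, were floored in each of the 3 WT samples and in 2 of the 3 p21-/- samples. COL4A6, another collagen IV chain, was low but above the floor in all 6 samples, with means of 44.5 in WT and 44.6 in p21-/- cells (adjusted p = 0.991).

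Of the fibril collagens and their processing genes 1 of 11 was called higher and 2 lower, with a median log2 difference of -0.12. SERPINH1, a collagen chaperone, rose by 0.79 on the log2 scale (adjusted p = 5.34e-07), while COL1A1 fell by 1.73 (adjusted p = 2.27e-07) and COL6A2 by 0.66 (adjusted p = 0.000205).

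Among receptors for these proteins more genes were lower than higher. Of 13 measured, 6 were called lower and 1 higher, and the median log2 difference was -0.37. ITGB8, an integrin chain that binds latent TGF-beta, was at 719 ± 188 in WT cells (SD, n = 3) and fell to the floor in 2 of the 3 p21-/- samples (adjusted p = 3.14e-11), and ITGA3 fell by 2.99 on the log2 scale (adjusted p = 9.32e-12). The other 4 that fell, named after their values were seen, were ITGA5 (-1.10) and ITGB1 (-1.15), which together form the main fibronectin receptor, SDC4 (-1.42), a heparan sulfate co-receptor of fibronectin, and EGFR (-0.81), which repeats of tenascin C can bind. All 6 were called lower in each of the 18 alternatives. The 1 called higher, ITGB3, was floored in every WT sample and lost the call in 8 of the 18, among them those without WT replicate 1, WT replicate 3 or p21-/- replicate 3. CD36, a thrombospondin 1 receptor, was floored in every WT sample and in 2 of the p21-/- samples.

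Metalloproteinases, which cut several of these proteins, were mostly at the floor, 11 of 18 in all samples, against 167 of the 770 genes of the panel. Of the 18, 2 were called higher and 3 lower, with a median log2 difference of -0.12. MMP13 was floored in every WT sample and rose by at least 1.56-fold (adjusted p = 5.91e-05), and MMP17 rose by 0.76 on the log2 scale (adjusted p = 0.0021), a call lost under the housekeeping candidates. ADAM15 fell by 0.88 (adjusted p = 2.43e-06) and ADAM17 by 0.72 (adjusted p = 4.11e-05).

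Thrombospondin 1 and fibronectin genes are known to respond to TGF-beta, and thrombospondin 1 can activate it. Of 19 measured genes of the TGF-beta axis 3 were called higher and 7 lower, with a median log2 difference of -0.12. ID2 fell by 4.44 on the log2 scale (adjusted p = 1.55e-14). SMAD9 rose by 0.99 (adjusted p = 0.000242), and FST, the gene of the activin antagonist follistatin, was floored in every WT sample and rose by at least 1.59-fold (adjusted p = 9.57e-05).

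**Figure D4:**
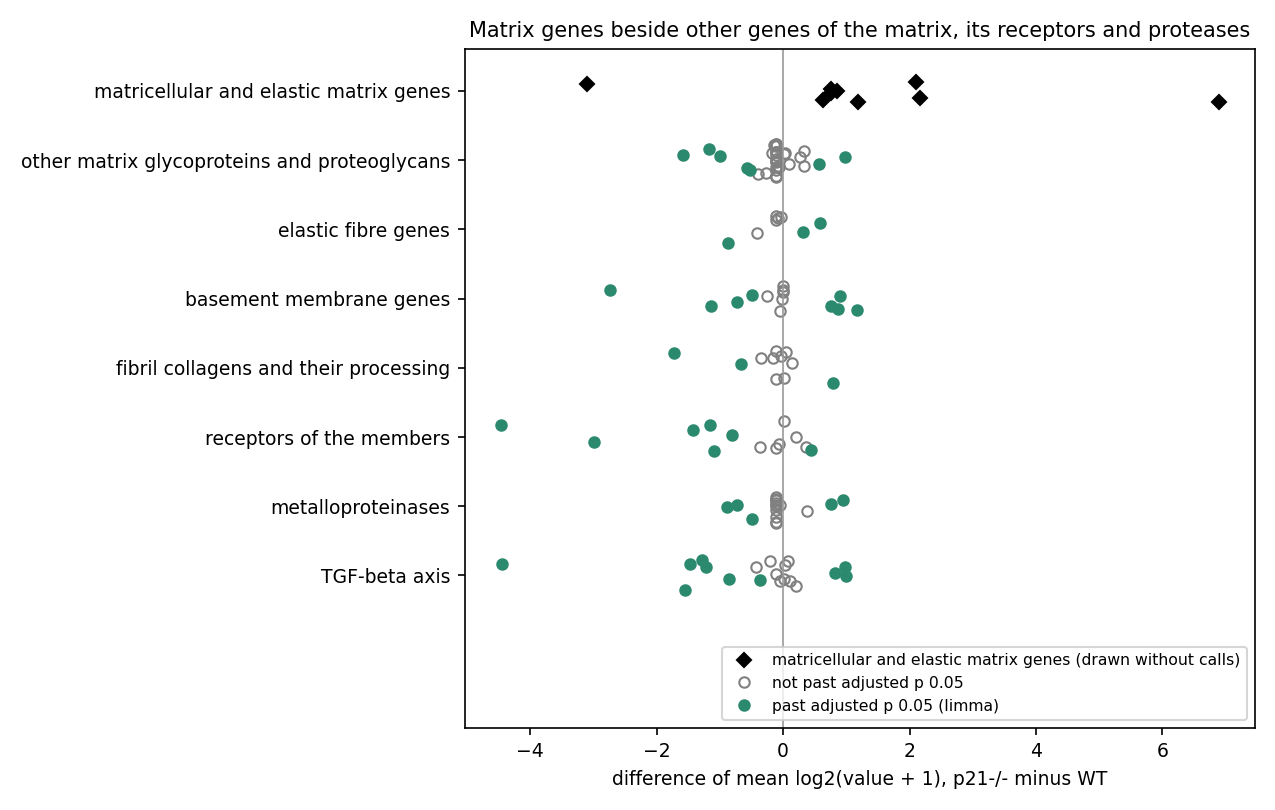
Difference of mean log2(value + 1), p21-/- minus WT, of the 9 matrix genes (black diamonds, drawn without calls) and of the genes of 7 lists (circles, filled where limma gave an adjusted p below 0.05); the vertical spread of the points within a row has no meaning. The 9 genes reach from -3.11 to 6.89, the receptors have 6 filled points on the lower side and 1 on the upper, and the open points piled up at -0.12 are genes at the floor in all 6 samples.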

How the data were processed

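Each of the 6 samples, 3 per line, was assigned to its line and replicate number from its title. The authors deposited gene values that are a signal: counts scaled in nSolver by positive controls and housekeeping genes. The control probes were deposited as unscaled counts. The floor was 2 SD above the average of the 8 negative controls, and its upper limit is the floor itself or, where larger, the floor times the scaling factor. Barcode counts were recovered with these factors (0.885 to 1.51 normalized counts each, whole within 0.1 count for values under 500 above the floor), and their intervals cover counting error only. Pairs of replicates differed by more than counting error, by 2.09 to 84.0 chi-square units per degree of freedom, so none was counted as a duplicate.

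Differences were computed on log2(value + 1), which understates the change of low genes, with limma 3.58.1 in R 4.3.3 (lmFit, eBayes with an intensity trend, all 6 samples, no filter, two-sided, Benjamini-Hochberg adjustment over 770 genes). The fit was also run on simulated data with normal noise of equal spread in both lines. The lines here differed in spread, so that run does not show how well the p-values hold for these data. The 9 genes are given with standard errors from the SDs of the lines and no p. These genes and the lists were chosen with earlier results of these data known. Named list genes are, by rule, the 2 that rose and the 2 that fell most among those called, without overlap and averaging 50 or more in the higher line, and the closest gene to each of the 6 that were never at the floor. A few genes that this rule selects are not reported here. Genes named beyond the rule were chosen after their values were seen. Symbols matched a RefSeq gene table for 755 genes directly and 15 by synonym. Alternatives were pseudocounts, a filter on floor genes, 4 scalings, the limit of the floor, the prior variance, the replicate block, an ordinary linear model and leaving out each sample. Background subtraction was added after seeing the data. The titles call the samples biological replicates, and by the study's methods the cells were harvested anew for each, so p-values rest on the spread between harvests of these lines. For values at the floor, SDs, standard errors and p-values take the floor as listed and do not measure the spread of the gene. The tumour cohort and the protein data of the study were not analysed here.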

Additional observations from a re-analysis of the deposited data

How the results depend on the processing

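No difference of the 9 matrix genes changed sign in any alternative, and of 144 values for single genes 36 moved by more than the SD between replicates. The median over the 9 genes, 0.85 as reported, was 1.06 under median scaling, 1.18 under quantile normalization, 0.46 under the housekeeping candidates and 1.50 after background subtraction, an alternative chosen after seeing the data, which gave SPARC 8.07, TNC 3.25, ABI3BP 1.50 and PXDN -3.87. Among the 116 other genes, 27 were called higher under median scaling, and 9 higher and 90 lower under the housekeeping candidates, which called 97 higher and 529 lower in the panel. With floor values at their upper limit 65 of the 116 and 392 of the panel were called lower, since genes at the floor in both lines then differ by their limits. Leaving out 1 sample at a time gave 13 to 16 higher and 28 to 32 lower of the 116, 143 to 177 higher and 187 to 219 lower in the panel, and a median over the 9 genes of 0.80 to 0.95. The replicate block gave 14 higher and 29 lower of the 116 and 161 higher and 202 lower in the panel; deviations of same-numbered samples correlated at 0.076, -0.054 and 0.052, so the numbers did not pair the samples. The floor limits what is known of SPARC, TNC and ABI3BP in WT cells, and background that of PXDN in p21-/- cells.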
